A study of Drosophila montana and Drosophila virilis with 24 samples.

Results

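Whole-body RNA of Drosophila montana females sampled 15 min after a long exposure below freezing was compared with that of females sampled after a brief exposure at 0°C. The 6 arrays used were chosen by their labels, 3 for each treatment, out of 24 arrays in a study of cold exposure in D. montana and Drosophila virilis. In the 15-min recovery group, flies were kept at -6°C for 16 h, which puts them into chill coma, and then left to recover for 15 min. In the cold hardening group, flies were kept at 0°C for 1 h. A 1-h recovery group had the same 16 h at -6°C followed by 1 h of recovery, and a control group stayed at 19°C. A cold acclimation group was kept at 5°C for 6 days. These 3 groups enter the fit and share in its estimate of the spread, and the control and 1-h recovery levels are also given beside the comparison, with no test. All flies were mature females, 20 days old when collected, kept under 22 h of light and 2 h of dark, and frozen 5 to 6 h after lights-on. Each array held RNA from a separate pool of 10 whole flies, so levels in single tissues and single animals were not measured. The recovery and hardening treatments differ in temperature, in length and in whether the flies had been rewarmed, and these cannot be told apart here.

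D. montana is a cold-tolerant fly of northern latitudes. In chill coma, low temperature stops nerve and muscle function and the fly lies immobile until it is rewarmed. Cold hardening is a short, non-lethal chill that raises tolerance to a later, harsher cold. Known cold responses in insects include remodelling of membrane fatty acids, changes in ion transport, use of sugars as protectants and, on rewarming, production of heat shock proteins, which refold or hold damaged proteins.

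The array was a custom design of candidate genes, and each gene's level below is a log2 signal relative to the 75th percentile of its own array, averaged over the gene's probes. A value of 0 therefore means a signal equal to that percentile, and a difference of 1 is a doubling. Of 218 named genes, 213 were tested, those with a probe that was well above background throughout at least 1 of the D. montana groups. The 75th percentile itself was 478.2 to 678.2 signal units on the 15-min recovery arrays and 661.2 to 881.1 on the cold hardening arrays. Between 75.6% and 78.5% of spots were well above background on the recovery arrays, against 78.6% to 83.1% on the hardening arrays, and the part of this lower signal in the results was not tested. Photoreceptor markers (ninaE, Rh3, Rh4, Rh6, norpA) and muscle markers (Mhc, sls) were measured in both groups. Of the neuronal markers, para was not well above background on any recovery array and elav was not among the named genes used here, and neither were the yolk protein genes.

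After chill coma recovery, several metabolic genes and the light receptor gene cry were higher than after cold hardening, and several kinase, ion channel and clock-regulating genes were lower. Of the 213 genes, 55 (25.8%) differed at an adjusted p under 0.05 in limma's moderated test with Benjamini-Hochberg adjustment, fitted over the 15 D. montana arrays. Fitted on the 6 compared arrays alone, 26 genes passed. The higher genes numbered 22 (10.3%) and the lower genes 33 (15.5%). The changes were small: only Adh and mnb differed by more than 1 log2 unit, the smallest called rise was 0.37 and the smallest called fall -0.30. In 53 of the 55 called genes no recovery array overlapped with the hardening arrays, as was also so in 91 of the 213 tested genes (42.7%). The exceptions were Hsc70Cb and CG17928.

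**Figure D1:**
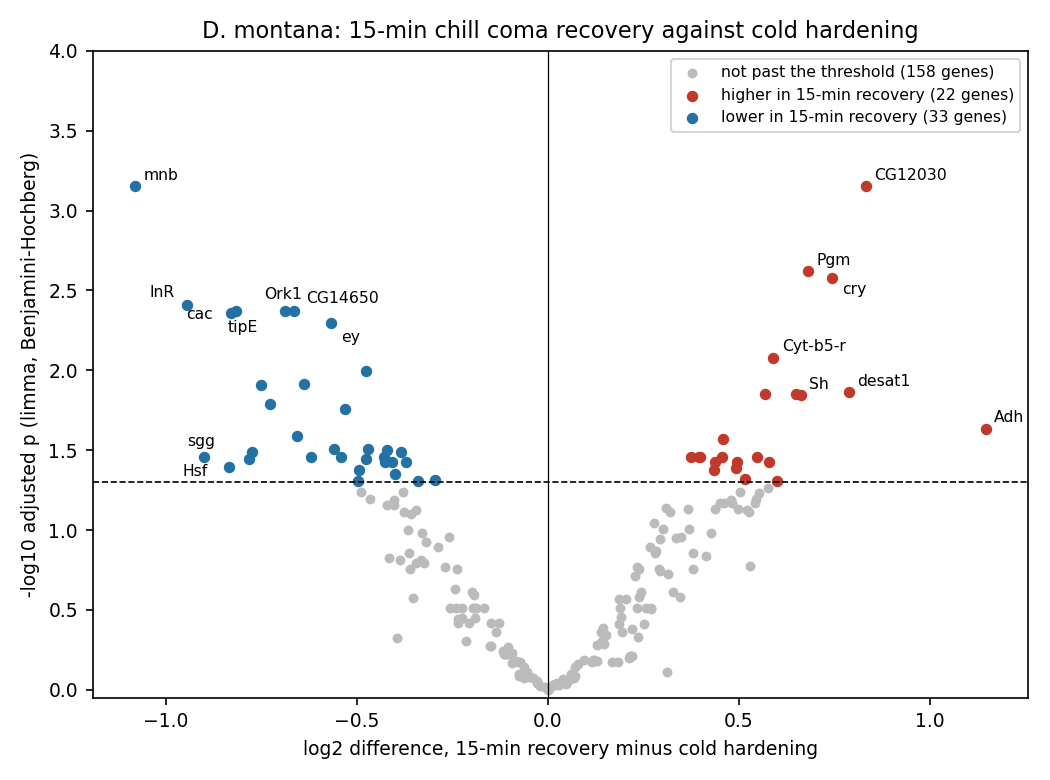
Log2 difference (15-min recovery minus cold hardening, x axis) against -log10 of the adjusted p (y axis) for the 213 tested genes, 1 point per gene. The dashed line is the threshold of 0.05, with 22 genes past it on the higher side in recovery and 33 on the lower side.

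How many genes passed depended on single arrays and on the scaling. Without cold hardening replicate 1, 12 genes passed, and without 15-min recovery replicate 2, 15 passed. The count was 36 without recovery replicate 3 and 25 without hardening replicate 2. The 12 genes that passed with each of the 6 arrays left out in turn were the rises CG12030, cry, Cyt-b5-r and Pgm and the falls cac, CG14650, ey, InR, mnb, Ork1, sbb and tipE. Scaling by the spike-in spots in place of the 75th percentile left 5 genes past the threshold, the rises Adh, CG12030 and cry and the falls InR and mnb. Scaling by the array median gave 6 rises and 39 falls and moved the median difference of all genes to -0.16, against 0.02 with the 75th percentile. Under these, quantile normalization and a model-based background correction (normexp) followed by quantile normalization, each of the 55 genes kept its direction. Sizes were less stable, and normexp moved 19 of the 55 differences by over 1.5 times, quantile normalization 7 and array-median scaling 13. Under none of these 4 alternatives did the rises CG17928, Clk, ninaE, so, Tpi or Ubi-p63E pass. Apart from spike-in scaling, 5 of the 22 rises and 26 of the 33 falls passed under each of the other alternatives. With slide as a term in the fit 72 genes passed, the 55 among them.

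**Figure D2:**
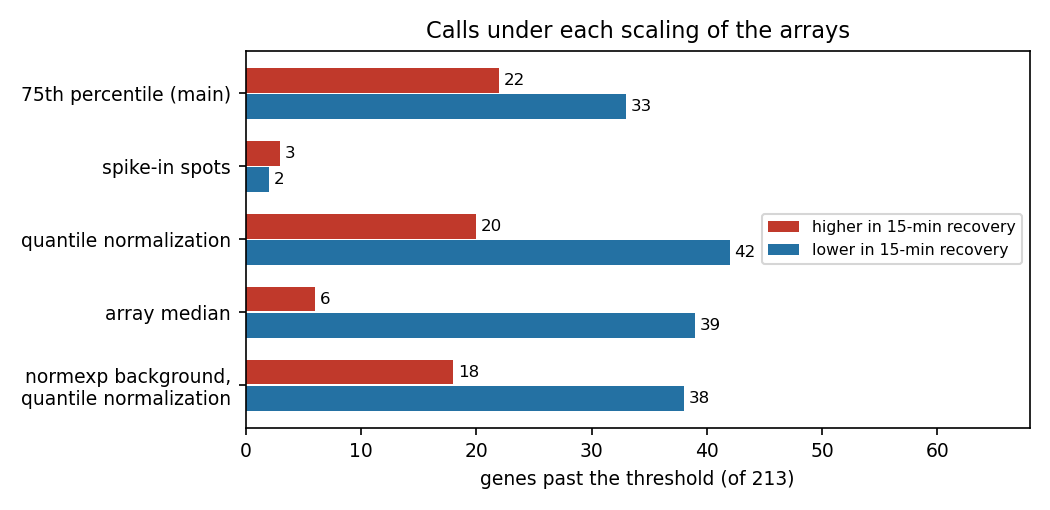
Number of genes past the threshold (x axis, out of 213) that were higher (red) and lower (blue) in 15-min recovery than in cold hardening, under 5 ways of scaling the arrays. The bars show 22 and 33 genes with the 75th percentile, 3 and 2 with the spike-in spots, and 6 and 39 with the array median.

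Of the sugar and alcohol enzyme genes, Adh and Pgm were among the 12 largest rises, and Tpi was the smallest called rise. Of 6 measured genes of this list, 4 rose (66.7%, against 10.3% of all tested genes) and none fell. The list's median difference was 0.42, against 0.02 for all tested genes. It was 0.22 under quantile normalization, 0.23 with array-median scaling and 0.24 with normexp. Adh, alcohol dehydrogenase, had levels of 6.08, 6.58 and 6.07 in 15-min recovery, against 4.58, 5.23 and 5.48 in cold hardening. Every recovery array lay above every hardening array, and the control arrays, at 5.97, 5.95 and 6.27, lay close to the recovery arrays. The difference was 1.14 ± 0.32 (SE, n = 3 each, adjusted p = 0.0232 in limma), a 2.21-fold higher signal in recovery. Adh did not pass under quantile normalization, with normexp or with the values of the authors' deposited table, nor without recovery replicate 2 or hardening replicate 1.

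Pgm, phosphoglucomutase, which links glycogen to glucose breakdown, had levels of 5.03, 5.29 and 4.92 in recovery and 4.23, 4.51 and 4.46 in hardening. The groups were well separated and the control arrays, at 4.84, 4.79 and 4.88, lay between them. Pgm rose by 0.68 ± 0.12 (SE, n = 3 each, adjusted p = 0.0024 in limma), and by 0.41 under quantile normalization. Treh, trehalase, which splits the blood sugar trehalose into glucose, rose by 0.46 (adjusted p = 0.0267 in limma), but by 0.27 with array-median scaling, which did not pass. The glycolytic enzyme Tpi rose by 0.37 (adjusted p = 0.0348 in limma), but its difference was 0.02 under quantile normalization and it passed under no other scaling. The other members, the glycolytic enzymes Gapdh1 and Gapdh2, both differed by 0.02 and did not pass.

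CG12030 had the smallest p among the rises. In D. melanogaster it encodes UDP-galactose epimerase, an enzyme of galactose use, although it was placed in the oxidative stress list here. Its levels were 4.65, 4.85 and 4.67 in recovery, against 3.70, 3.85 and 4.12 in hardening, and 4.24, 4.31 and 4.28 in the controls. The groups lay in 3 bands with the control arrays in the middle. The rise was 0.83 ± 0.13 (SE, n = 3 each, adjusted p = 0.000706 in limma), which is 1.78-fold. CG12030 was the sole called member of that list of 4 (25.0%, against 10.3% of all tested genes that rose). The antioxidant enzymes Cat, catalase, and Sod1, superoxide dismutase, differed by 0.15 and 0.23 without passing.

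The fourth member, Eip71CD, a methionine sulfoxide reductase that repairs oxidised proteins, was far below control in both cold groups. Its levels were -0.59, 0.12 and -0.23 in recovery and -0.87, 0.25 and 1.10 in hardening, against 2.24, 2.67 and 2.07 in the controls. The recovery and hardening arrays overlapped, and their difference of -0.39 ± 0.40 did not pass (SE, n = 3 each, adjusted p = 0.473 in limma).

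Several genes of lipid desaturation rose as well. Desaturases put double bonds into fatty acids, which keeps membranes fluid in the cold. Of 8 measured members, 4 rose and none fell, where 10.3% of all tested genes rose. The list's median difference was 0.56, against 0.02 for all tested genes. It was 0.31 under quantile normalization, 0.37 with array-median scaling, 0.30 with normexp and 0.63 with spike-in scaling. The delta-9 desaturase desat1 had levels of 7.27, 8.07 and 7.82 in recovery, against 6.85, 7.11 and 6.85 in hardening. All recovery arrays lay above all hardening arrays, but the controls ran from 6.85 to 7.60 and overlapped with both. The rise was 0.79 ± 0.20 (SE, n = 3 each, adjusted p = 0.0138 in limma), and 0.48 under quantile normalization.

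Cyt-b5-r, a cytochrome b5-related protein, had 5.75, 5.89 and 5.63 in recovery, against 5.07, 5.27 and 5.16 in hardening. These groups did not overlap, and the rise was 0.59 ± 0.13 (SE, n = 3 each, adjusted p = 0.00832 in limma), and 0.29 with normexp. With array-median scaling Cyt-b5-r rose by 0.41 and did not pass. CG8630, a predicted desaturase in D. melanogaster, had 4.20, 4.73 and 4.26 in recovery, against 3.62, 3.92 and 3.94 in hardening. Again every recovery array was higher, and CG8630 rose by 0.57 ± 0.14 (SE, n = 3 each, adjusted p = 0.014 in limma). With array-median scaling CG8630 rose by 0.39 and did not pass. CG17928 rose by 0.60 (adjusted p = 0.0491 in limma), but it passed under no other scaling and on slide 3 its difference was -0.05. The members that did not pass ran from -0.24 for CG9747 to 0.54 for desat2.

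**Figure D3:**
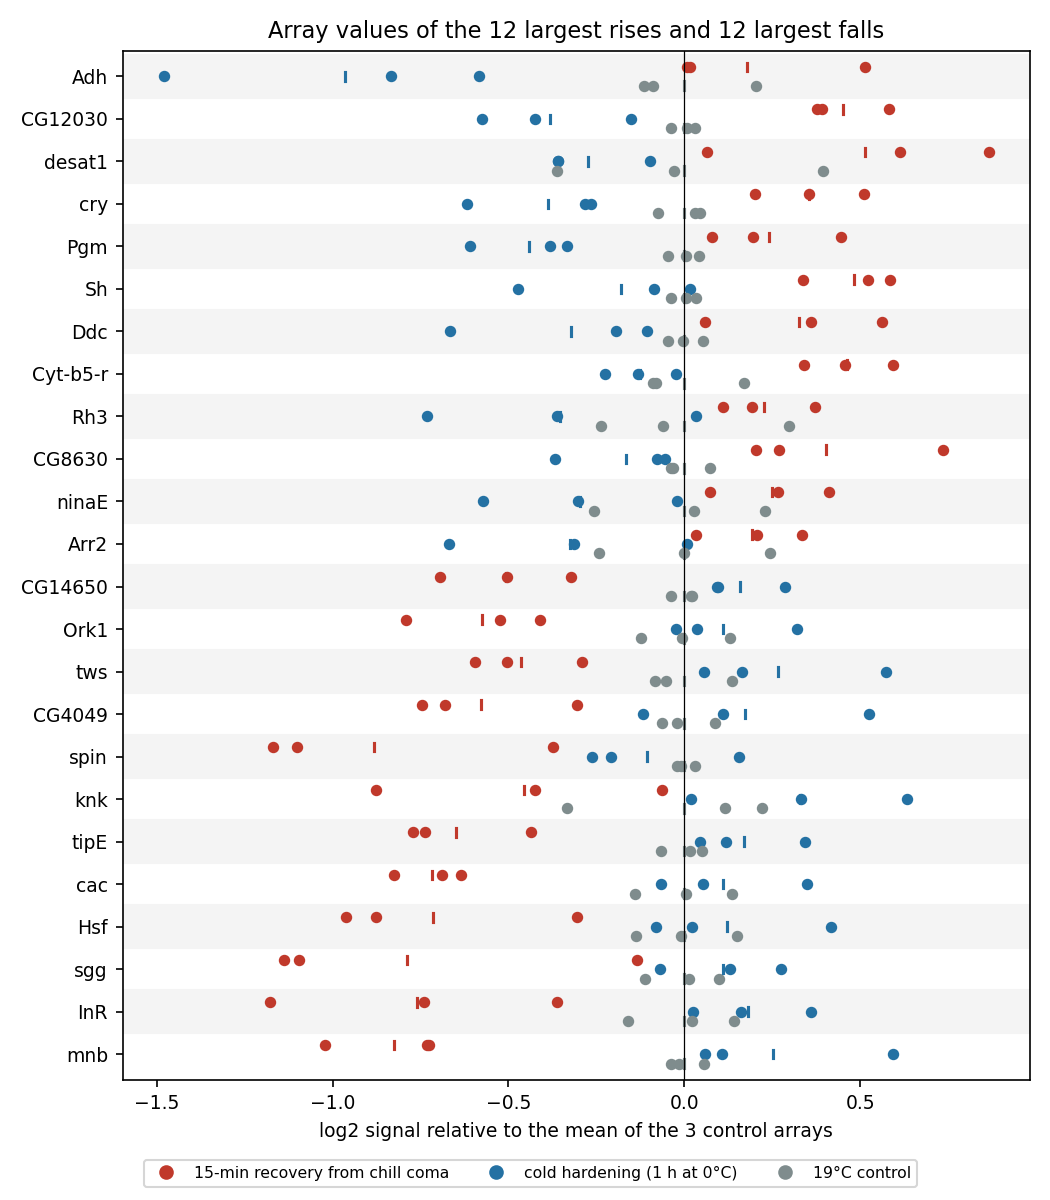
Log2 signal of each array relative to the mean of the 3 control arrays (x axis) for the 12 largest rises and the 12 largest falls with groups that do not overlap, with 1 row per gene. Points are arrays of 15-min recovery (red), cold hardening (blue) and control (grey), and vertical ticks are group means. For mnb, the recovery arrays average -0.83 and the hardening arrays 0.25 relative to control.

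Which cold group stood further from control differed between genes. The differences of each cold group from control use the same control arrays and were not tested here. For the rises Adh and Pgm the recovery group differed from control by 0.18 and 0.24, and the hardening group by -0.97 and -0.44. For the rises desat1 and Cyt-b5-r the recovery group differed from control by 0.51 and 0.46, and the hardening group by -0.27 and -0.13. For the falls mnb, InR, sgg and tipE the recovery group differed from control by -0.83, -0.76, -0.79 and -0.65, and the hardening group by 0.25, 0.18, 0.11 and 0.17. Hardening was thus the more distant group for Adh and Pgm and recovery for the other genes given here, so the rises were not all alike. In the lower rows of the plot of array values most grey points lie beside the blue ones. The control mean lay between the means of both cold groups in 52 of the called genes (94.5%), against 126 of all tested genes (59.2%).

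The circadian clock list divided into rises and falls. The fly clock runs on CLK and CYC, which switch on per and tim, whose proteins then shut CLK and CYC off. Kinases, a phosphatase and a ubiquitin ligase set how fast PER and TIM are modified and destroyed, and the blue-light receptor CRY resets the loop. Of 15 measured clock genes, 3 rose (20.0%, against 10.3% of all tested genes) and 5 fell (33.3%, against 15.5%). The median was 0.18, and under array-median scaling it was within 0.01 of 0.

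All called rises of the clock list were in the activators and the light receptor. The light receptor gene cry had 0.38, 0.54 and 0.23 in recovery, against -0.59, -0.24 and -0.26 in hardening and 0.07, 0.06 and -0.05 in the controls. Its 3 groups did not overlap, and the rise was 0.74 ± 0.14 (SE, n = 3 each, adjusted p = 0.00263 in limma). Clk had -3.33, -3.15 and -3.22 in recovery, against -3.94, -3.52 and -3.55 in hardening, and rose by 0.43 (adjusted p = 0.0423 in limma), which was 0.13 with normexp and passed under no other scaling. The partner gene cyc had 0.28, 0.64 and 0.28 in recovery, against -0.29, 0.10 and 0.02 in hardening, and rose by 0.46 (adjusted p = 0.0348 in limma), or by 0.27 with array-median scaling, which did not pass. Clk and cyc each had all recovery arrays above all hardening arrays.

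The clock genes that fell act on clock proteins or on RNA. The kinase sgg, the fly GSK3, which acts on TIM, had levels of 0.77, -0.19 and -0.23 in recovery, against 1.18, 1.03 and 0.83 in hardening. Recovery replicate 1 lay close to the lowest hardening array and the other recovery arrays lay well below. The difference was -0.90 ± 0.28 (SE, n = 3 each, adjusted p = 0.0348 in limma). The phosphatase subunit gene tws had 1.02, 0.72 and 0.81 in recovery, against 1.89, 1.48 and 1.37 in hardening. These did not overlap, and tws fell by 0.73 ± 0.19 (SE, n = 3 each, adjusted p = 0.0162 in limma). The casein kinase gene dco fell by 0.62, the RNA-binding protein gene lark by 0.47 and the ubiquitin ligase subunit gene slmb by 0.40, with adjusted p-values of 0.0348, 0.0361 and 0.0446 in limma.

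The feedback genes themselves did not pass. Across its 9 probes per differed by 0.19 ± 0.13 (SE, n = 3 each, adjusted p = 0.27 in limma), and single probes ran from -0.15 to 0.55. Over 14 probes tim differed by 0.23 ± 0.13 (SE, n = 3 each, adjusted p = 0.194 in limma), and vri, a repressor of Clk, by 0.21 ± 0.31 (SE, n = 3 each, adjusted p = 0.636 in limma). In all 3 genes the recovery and hardening arrays overlapped. The clock-linked channel gene na was not well above background on any recovery array.

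Of 18 measured genes of vision and phototransduction, 3 rose (16.7%, against 10.3% of all tested genes) and none fell, and the median difference was 0.32. The share of called genes either way was below the 25.8% of all tested genes. Rh3, an ultraviolet-sensitive opsin, had 0.94, 1.12 and 0.86 in recovery, against 0.02, 0.39 and 0.78 in hardening, and rose by 0.58 ± 0.19 (SE, n = 3 each, adjusted p = 0.0373 in limma). With array-median scaling Rh3 rose by 0.40 and did not pass. The main rhodopsin gene ninaE had 6.02, 6.17 and 5.83 in recovery, against 5.19, 5.46 and 5.74 in hardening, and rose by 0.55 ± 0.17 (SE, n = 3 each, adjusted p = 0.0348 in limma), but by 0.25 with normexp, and it passed under no other scaling. Arr2, the arrestin that shuts rhodopsin off, had 3.12, 3.25 and 2.95 in recovery, against 2.25, 2.60 and 2.92 in hardening, and rose by 0.52 ± 0.18 (SE, n = 3 each, adjusted p = 0.0481 in limma), or by 0.33 with array-median scaling, which did not pass.

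In these 3 genes hardening replicate 3 lay just under the recovery arrays, and on slide 3 alone the differences were 0.08 for Rh3, 0.09 for ninaE and 0.03 for Arr2. In whole bodies, fewer cells of a type, such as photoreceptors, and less RNA per cell cannot be told apart. The members that did not pass ran from -0.36 for norpA, the phospholipase of the light response, to 0.55 for Rh4, another ultraviolet opsin. Of the 3 measured eye-specifying transcription factor genes, so rose by 0.44 (adjusted p = 0.0373 in limma) and ey fell by 0.57 (adjusted p = 0.00507 in limma), while gl differed by 0.38 without passing. This is 1 called gene each way (33.3%), against 10.3% of all tested genes that rose and 15.5% that fell. With normexp so differed by 0.13 and ey by -0.10, and neither passed. The ey arrays were tightly grouped, at -5.90, -6.01 and -6.00 in recovery, against -5.43, -5.34 and -5.43 in hardening, but the signal was low. No ey probe was well above background on all 15 D. montana arrays.

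In the catecholamine and beta-alanine pathway, which makes dopamine and cuticle pigment precursors, Ddc was the called member of 8. This share of rises, 12.5%, was close to the 10.3% of all tested genes. Ddc encodes dopa decarboxylase, and its levels were 1.01, 1.22 and 0.71 in recovery, against -0.01, 0.46 and 0.55 in hardening. Every recovery array was higher, and the rise was 0.65 ± 0.16 (SE, n = 3 each, adjusted p = 0.014 in limma). With array-median scaling Ddc rose by 0.47 and did not pass. The other members, from 0.22 for amd to 0.54 for the pigment gene e, all had positive differences that did not pass, and the list's median was 0.37. On slide 3 the rise of Ddc was 0.16.

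Ion channel genes moved in both directions. These channels set the electrical excitability of nerve and muscle. Of 9 measured members, 1 rose (11.1%, against 10.3% of all tested genes) and 3 fell (33.3%, against 15.5%), and the median difference was -0.26. The calcium channel gene cac, which encodes the pore subunit that triggers transmitter release, had -3.58, -3.63 and -3.77 in recovery, against -2.60, -2.89 and -3.01 in hardening and -2.94, -2.81 and -3.09 in the controls. Hardening and control arrays overlapped and the recovery arrays lay below both. The difference was -0.83 ± 0.17 (SE, n = 3 each, adjusted p = 0.00435 in limma), from 2 probes that each gave -0.83. With dim probes kept in, the average for cac was 0.03 and did not pass, and with normexp it was -0.44 and passed.

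The gene tipE, which encodes an auxiliary subunit of the para sodium channel in D. melanogaster, had -0.42, -0.76 and -0.73 in recovery, against 0.35, 0.13 and 0.06 in hardening. No arrays overlapped, and tipE fell by 0.82 ± 0.17 (SE, n = 3 each, adjusted p = 0.00428 in limma). The third fall was mle, an RNA helicase of dosage compensation that also affects para transcripts in D. melanogaster, at -0.34 (adjusted p = 0.0491 in limma), or -0.52 with array-median scaling. The Shaker potassium channel gene Sh went the other way, with -3.55, -3.30 and -3.37 in recovery, against -4.36, -3.98 and -3.87 in hardening. Sh rose by 0.66 ± 0.17 (SE, n = 3 each, adjusted p = 0.0143 in limma) without overlap, and by 0.20 with normexp.

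A potassium channel outside that list, Ork1, which carries a resting leak current, fell as well. Its levels were -1.63, -2.01 and -1.75 in recovery, against -0.90, -1.19 and -1.25 in hardening and -1.09, -1.35 and -1.23 in the controls. The recovery arrays lay below the other groups, with a difference from hardening of -0.69 ± 0.14 (SE, n = 3 each, adjusted p = 0.00428 in limma).

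The largest fall of all was mnb, a kinase of the DYRK family needed for brain growth in D. melanogaster. Its levels were -1.74, -2.03 and -1.75 in recovery, against -0.42, -0.91 and -0.96 in hardening and -1.05, -1.03 and -0.96 in the controls. The recovery arrays formed a group apart, and hardening replicate 1 was the highest of the others. The difference was -1.08 ± 0.16 (SE, n = 3 each, adjusted p = 0.000706 in limma), a 2.11-fold lower signal, and its 3 probes gave between -1.12 and -1.02.

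Of 9 neuronal kinase and signalling genes, 3 fell (33.3%, against 15.5% of all tested genes) and none rose, with a median difference of -0.26. Besides mnb and sgg the third was dnc, a cyclic AMP phosphodiesterase of learning, which fell by 0.30 (adjusted p = 0.0487 in limma), or by 0.48 with array-median scaling. The serotonin receptor gene 5-HT7 had the highest difference of the list, 0.34, and did not pass (adjusted p = 0.112 in limma), although it did with slide as a term (adjusted p = 0.0248). Of 6 synapse genes, 2 fell (33.3%, against 15.5% of all tested genes) and none rose, with a median of -0.38. These were mnb, which both lists hold, and the scaffold gene Caki, which fell by 0.41 (adjusted p = 0.0373 in limma). The acetylcholinesterase gene Ace differed by 0.29 without passing.

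Further called genes, in no list and chosen after their values were seen, were Csp, hiw and homer. Csp, a vesicle co-chaperone, fell by 0.56 (adjusted p = 0.0312 in limma). The gene hiw, a ubiquitin ligase that limits synapse growth in D. melanogaster, fell by 0.47 (adjusted p = 0.0312 in limma), but by 0.13 with normexp, which did not pass. The postsynaptic scaffold gene homer fell by 0.43 (adjusted p = 0.0373 in limma).

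The insulin receptor gene InR had -4.33, -5.15 and -4.71 in recovery, against -3.61, -3.81 and -3.95 in hardening and -3.83, -4.13 and -3.95 in the controls. Recovery arrays were lowest throughout and spread more widely than the others. The difference was -0.94 ± 0.18 (SE, n = 3 each, adjusted p = 0.0039 in limma), and its 2 probes gave -1.28 and -0.61. Across the other scalings it ranged from -1.13 with the array median to -0.30 with normexp, and passed in each. InR was the called member of 5 measured genes of insulin signalling and diapause (20.0%, against 15.5% of all tested genes that fell). Ilp7, an insulin-like peptide, differed by 0.45 and did not pass (adjusted p = 0.0678 in limma), but did with slide as a term (adjusted p = 0.00805). Thor, the translation inhibitor 4E-BP that insulin signalling holds down, had 3.96, 4.30 and 4.00 in recovery, against 3.73, 4.02 and 3.66 in hardening and 3.33, 3.51 and 3.29 in the controls. Both cold groups lay above control but overlapped each other, and their difference of 0.28 did not pass (adjusted p = 0.139 in limma).

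In the stress kinase list, Mekk1 was the called member of 6 (16.7%, close to the 15.5% of all tested genes that fell). It encodes a kinase upstream of p38, and its levels were -0.92, -1.56 and -1.53 in recovery, against -0.54, -0.62 and -0.88 in hardening. Recovery replicate 1 was just below the lowest hardening array, and Mekk1 fell by 0.65 (adjusted p = 0.026 in limma). The p38 kinase gene p38a differed by 0.50 in the other direction without passing (adjusted p = 0.0578 in limma), and passed with slide as a term (adjusted p = 0.0283). The list's median was 0.07, and it turned negative, to -0.12, under array-median scaling.

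Of the heat shock genes, the transcription factor was lower after recovery, and the other 5 measured genes of its list did not pass. Hsf, which encodes the factor that switches heat shock genes on, had -1.22, -1.87 and -1.79 in recovery, against -0.50, -0.99 and -0.89 in hardening and -1.05, -0.92 and -0.77 in the controls. The recovery arrays lay below all hardening and control arrays, and Hsf fell by 0.83 ± 0.28 (SE, n = 3 each, adjusted p = 0.0405 in limma). With normexp Hsf fell by 0.67 and did not pass. Nor did it pass without recovery replicate 2 or 3, or without hardening replicate 1 or 2. Hsf was the called member of 6 in the list of heat shock RNA and inducible Hsp70 genes (16.7%, close to the 15.5% of all tested genes that fell). That list's median was -0.06, and it was 0.01 under spike-in scaling.

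The noncoding heat shock RNA hsr-omega, which collects RNA-binding proteins in the nucleus under stress, had 2.40, 2.55 and 2.29 in recovery, against 1.68, 2.05 and 2.19 in hardening. The recovery arrays were all higher, but the difference of 0.44 ± 0.18 did not pass (SE, n = 3 each, adjusted p = 0.0737 in limma). Both groups were below the controls, by mean differences of -0.20 in recovery and -0.63 in hardening. After 1 h of recovery from the same chill coma its arrays stood at 4.60, 4.30 and 3.82, a mean of 1.63 above control.

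Hsp68, an inducible member of the Hsp70 family, was at 1.47, 1.48 and 1.44 in 15-min recovery, against 1.93, 1.66 and 1.53 in hardening and 1.54, 1.46 and 1.38 in the controls. Recovery matched the control level closely and hardening was slightly above, but the difference of -0.24 did not pass (adjusted p = 0.233 in limma). After 1 h of recovery Hsp68 was 1.26 above control. The Hsp70 co-chaperone stv differed by 0.24 and DnaJ-1 by -0.05, with adjusted p-values of 0.176 and 0.836 in limma. Relative to control, stv averaged 0.22 in 15-min recovery, -0.02 in hardening and 1.03 in 1-h recovery. DnaJ-1 averaged -0.39 in 15-min recovery, -0.35 in hardening and 0.85 in 1-h recovery. The levels at 1 h are given as a description with no test.

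**Figure D4:**
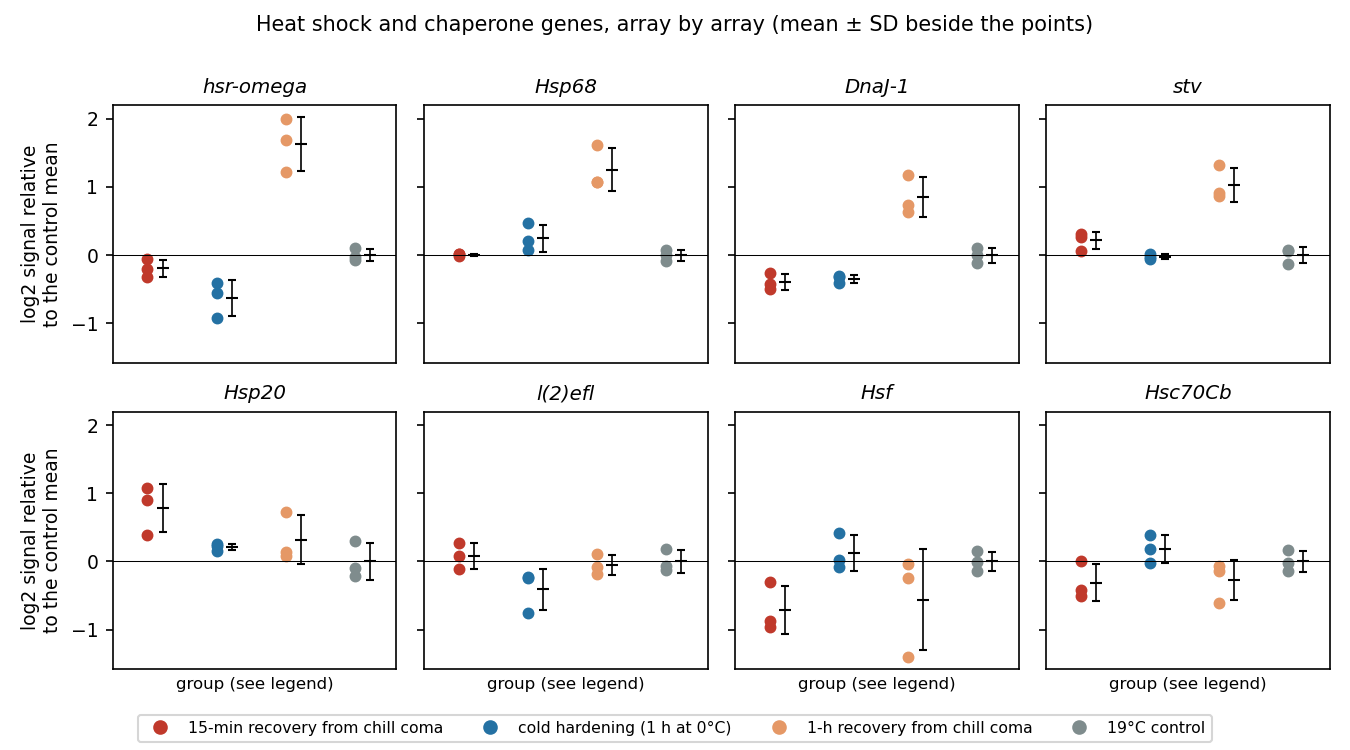
Log2 signal relative to the control mean (y axis) of 8 heat shock and chaperone genes on each array of 15-min recovery, cold hardening, 1-h recovery and control (x axis, left to right), with the mean ± SD (n = 3 arrays) beside the points. The 15-min recovery and hardening arrays of hsr-omega, Hsp68, DnaJ-1 and stv lie far below the 1-h recovery arrays, and Hsf is lower in 15-min recovery than in hardening.

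Small heat shock proteins hold unfolded proteins until they can be refolded. Of 5 measured genes, 1 rose (20.0%, against 10.3% of all tested genes) and none fell. The median of 0.24 turned to -0.01 with normexp. The gene l(2)efl, an alpha-crystallin relative, had 1.02, 1.21 and 0.83 in recovery, against 0.18, 0.71 and 0.70 in hardening, with no overlap. It rose by 0.49 (adjusted p = 0.0411 in limma), or by 0.31 with array-median scaling, which did not pass, and the controls, at 1.13, 0.82 and 0.88, lay close to the recovery arrays. Hsp20 had 1.05, 1.22 and 0.54 in recovery, against 0.37, 0.31 and 0.41 in hardening, and its difference of 0.58 missed the threshold (adjusted p = 0.0543 in limma). The differences of Hsp23, Hsp26 and Hsp67Bc lay between -0.02 and 0.24 and did not pass.

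Among 11 constitutive and other chaperone genes, 2 fell (18.2%, close to the 15.5% of all tested genes) and none rose, and the median was -0.19. Hsc70Cb, an Hsp110-type co-chaperone, had 1.03, 0.52 and 0.61 in recovery, against 1.43, 1.21 and 1.02 in hardening, where 1 recovery array overlapped, and fell by 0.49 (adjusted p = 0.042 in limma). PEK, which encodes an endoplasmic reticulum kinase that slows translation rather than a chaperone, fell by 0.50 (adjusted p = 0.0491 in limma), but by 0.33 with normexp, which did not pass. Hsp83, the fly Hsp90, had 4.40, 3.66 and 3.53 in recovery, against 4.30, 4.25 and 4.22 in hardening. Recovery replicate 1 lay above all hardening arrays and the other recovery arrays below them, and the difference of -0.39 did not pass (adjusted p = 0.155 in limma).

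The list of cold response candidates had 1 called rise in 6 (16.7%, against 10.3% of all tested genes), desat1, and a median of 0.37. The list was drawn up as candidates for a cold response, with earlier results of these data known. Fst, frost, had 0.06, 0.20 and -0.40 in recovery, against -0.54, 0.18 and 0.14 in hardening and 0.42, -0.48 and 0.34 in the controls. The 3 groups overlapped, and the recovery minus hardening difference was 0.03 ± 0.27 (SE, n = 3 each, adjusted p = 0.934 in limma). Dca, a regucalcin-like gene, had 4.41, 4.73 and 4.05 in recovery, against 3.38, 3.96 and 4.28 in hardening. These overlapped, since on slide 3 the difference was -0.23, and the overall 0.53 ± 0.22 did not pass (SE, n = 3 each, adjusted p = 0.0771 in limma).

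In the courtship and sex determination list, 5 of 13 measured genes fell (38.5%, against 15.5% of all tested genes) and none rose, with a median of -0.26. Besides cac and mle, these were tra, a splicing factor of female development, at -0.64 (adjusted p = 0.0123 in limma), Btk29A, a Tec-family kinase, at -0.53 (adjusted p = 0.0175 in limma), and the RNA-binding protein gene nonA, at -0.42 (adjusted p = 0.0314 in limma). The levels of tra were 1.35, 1.47 and 1.11 in recovery, against 2.14, 1.88 and 1.82 in hardening, and the controls, at 1.74, 1.77 and 1.80, lay between the groups. The highest difference of the list was 0.48, for the nuclear receptor gene dsf, which did not pass (adjusted p = 0.0678 in limma) but did with slide as a term (adjusted p = 0.0133).

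The remaining large falls came from genes in no list. The lysosomal transporter gene spin had 1.56, 0.84 and 0.77 in recovery, against 2.09, 1.67 and 1.73 in hardening, and fell by 0.77 (adjusted p = 0.0325 in limma). Recovery replicate 1 was the highest of its group and still below the hardening arrays. The gene knk, which organises cuticle chitin in D. melanogaster, had -5.27, -5.63 and -6.09 in recovery, against -4.58, -4.88 and -5.19 in hardening, and fell by 0.78 (adjusted p = 0.0361 in limma). The gap between the groups was small, and its control arrays, from -5.54 to -4.99, overlapped both. With normexp knk differed by -0.16 and did not pass.

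CG4049 had -3.01, -2.57 and -2.94 in recovery, against -1.74, -2.15 and -2.38 in hardening, and fell by 0.75 (adjusted p = 0.0124 in limma), and by 0.49 with normexp. CG14650 had -0.22, -0.40 and -0.59 in recovery, against 0.39, 0.20 and 0.20 in hardening, and fell by 0.66 (adjusted p = 0.00428 in limma). Neither gene had overlapping groups. Other falls were smaller, among them numb, a Notch inhibitor in cell fate decisions, at -0.54 (adjusted p = 0.0348 in limma). The corepressor gene sbb fell by 0.47 on average (adjusted p = 0.0101 in limma), but its 6 probes ran from -0.96 to 0.62, so they disagreed in direction, and with normexp it differed by -0.08 and did not pass. In the other 54 called genes all probes of the gene pointed the same way. This is automatic for a gene with 1 probe, such as spin, and the calls rest on the average of the same probes.

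Of 6 ribosomal protein and reference genes, 1 rose (16.7%, against 10.3% of all tested genes) and none fell. All 6 differences were positive with a median of 0.26, although quantile normalization turned this median to -0.04 and normexp to -0.03. The polyubiquitin gene Ubi-p63E, which supplies ubiquitin for protein breakdown, had 8.23, 8.64 and 8.46 in recovery, against 7.94, 8.12 and 8.09 in hardening. Its recovery arrays were all higher and the rise was 0.39 ± 0.12 (SE, n = 3 each, adjusted p = 0.0348 in limma), but it was 0.01 under quantile normalization and passed under no other scaling. The controls, at 7.87, 8.07 and 7.99, lay with the hardening arrays, and the 1-h recovery arrays, at 8.45, 8.43 and 8.40, with those of 15-min recovery. None of 3 actin and muscle genes passed. The muscle myosin gene Mhc differed by 0.23, and the titin-like gene sls by -0.21. This list's median was 0.15, and quantile normalization, array-median scaling and normexp each turned it negative, to between -0.04 and -0.03.

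**Figure D5:**
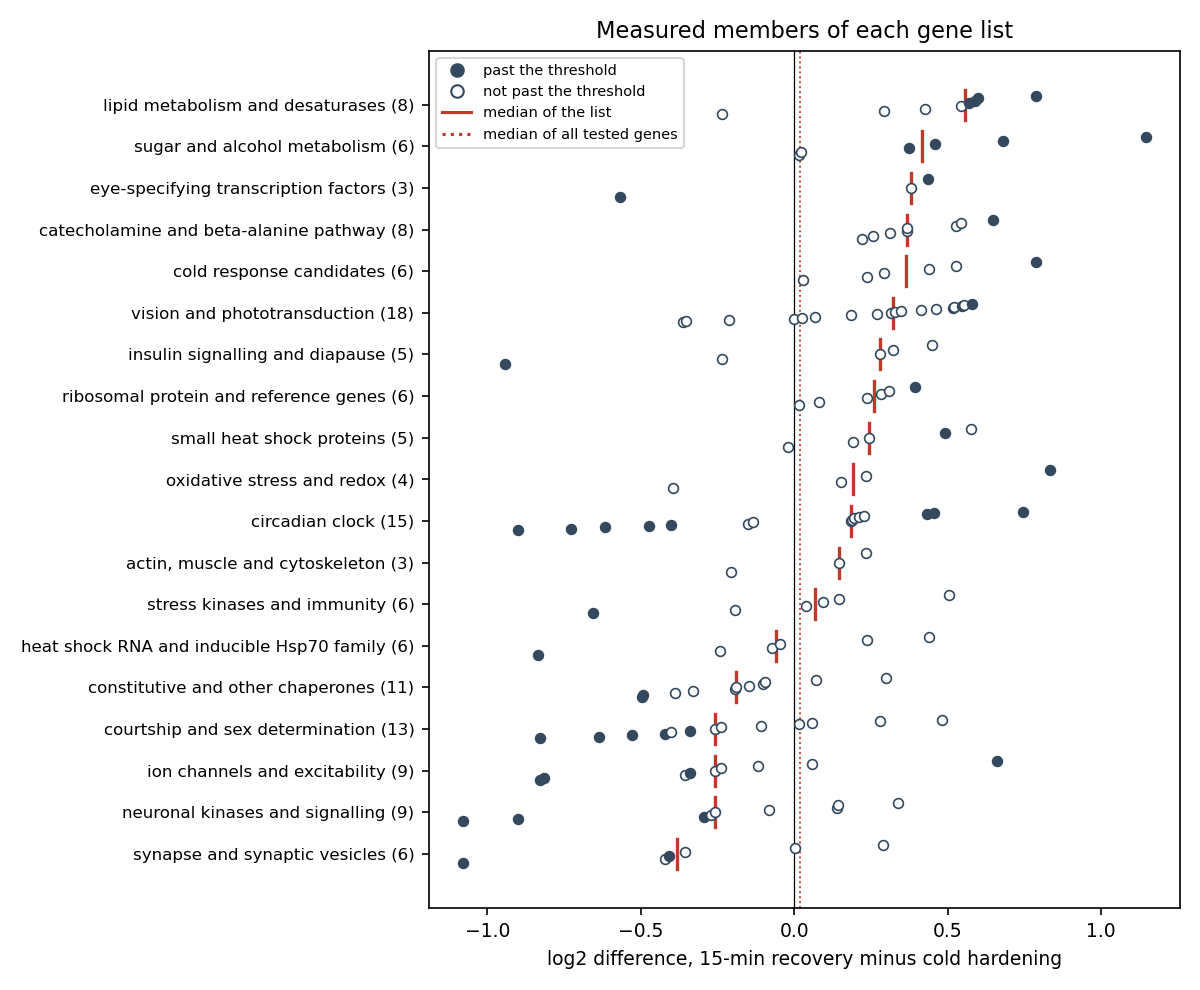
Log2 difference (15-min recovery minus cold hardening, x axis) of each measured gene, by gene list (rows, with the number measured), for the 19 lists with 3 or more measured genes. Filled points passed the threshold and open points did not, solid ticks are list medians and the dotted line is the median of all 213 genes, 0.02. The list of lipid metabolism and desaturases has the highest median, 0.56, and the synapse list the lowest, -0.38.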

How the data were processed

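RNA of whole females was hybridised to custom 1-colour Agilent arrays, and the deposited scanner files came from Agilent Feature Extraction version 10.7.1.1 according to their headers. Their processed signal, an intensity after the scanner software's background subtraction, was used as deposited, with its outlier and well-above-background flags. Control and outlier spots were left out and the 8 spots of a probe averaged. The log2 of the signal minus each array's 75th percentile was taken. For each of 925 probe pairs the brighter orientation was kept. Probes with over 50% of spots well above background throughout at least 1 of the D. montana groups were kept and averaged by gene name. Of 218 names, 163 matched a symbol in the RefSeq table of D. montana. The authors' deposited value table held a signal for each probe and served as an alternative. No precision beyond that of 3 arrays per group is available.

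Limma 3.58.1 (R 4.3.3) was fitted over 15 D. montana arrays in 5 groups, two-sided, with Benjamini-Hochberg adjustment over 213 genes at 0.05, and was tested on simulated data. Named genes were the 12 largest rises and 12 largest falls past the threshold with groups that do not overlap, the largest difference each way in every list, and 14 genes fixed by name, and other members or called genes were named after their values were seen. The members of the comparison and the gene lists were chosen with earlier results of these data known. Alternatives were 4 other scalings or background corrections, 2 other filters, both probe orientations, only the 6 arrays, a replicate or slide block, array weights, the authors' table and leaving out each array. The normexp background correction (offset 50) used the median in place of the planned mean spot signal, followed by quantile normalization.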

Additional observations from a re-analysis of the deposited data

How the results depend on the processing

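The count of 55 genes was within 1.5 times under quantile normalization, array-median scaling, normexp with quantile normalization, both filters on dim probes, both probe orientations, array weights (where the weights had not fully converged), the authors' deposited table and the blocks, between 38 and 73 genes. It was 5 with spike-in scaling and 26 with only the 6 arrays of both groups. Similar counts did not mean the same genes. Of the 55 genes, 34 passed with both orientations averaged, 37 with array weights and 39 with array-median scaling. With normexp 41 of them passed, as many as with the authors' deposited values, and under quantile normalization 46. Without the filter on dim probes 49 of them passed, and with the stricter filter 53. Leaving out each array in turn gave 12 to 66 genes. Replicate number as a block gave 73 genes and slide, read from the file headers and added after seeing the data, 72, each with all 55 among them. Same-numbered recovery and hardening arrays had deviations correlated at 0.26, 0.51 and -0.02, and differently numbered ones at between -0.43 and 0.23. So 2 of 3 same-numbered pairs lay above every differently numbered pair, the 0.26 only just. The numbers, whose arrays share slides, were not taken as a pairing, though these values do not settle it. Among named genes, 5-HT7, dsf, Ilp7, p38a and Hsp20, which missed the threshold in the reported fit, passed with the replicate block, and all of these but Hsp20 with slide. Averaging both orientations gave 28 higher and 23 lower genes, against 22 and 33 in the reported fit. Among named genes, the difference of cac turned to 0.029 (adjusted p = 0.899 in limma) with no filter on dim probes; the cause was not tested. Signals near background limit the genes lowest on the array, such as para, na and ey.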

Other observations

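Called genes with other roles completed the list of 55. The gap junction gene ogre, an innexin, rose by 0.40, and sas, which encodes a cell surface protein, rose by 0.49. With array-median scaling their differences were 0.21 and 0.31, and neither passed. Falls were seen in ari-1, a ubiquitin ligase gene, at -0.37, in Madm, at -0.38, and in CG9934, at -0.43. These 5 genes lay in no gene list and outside the rule for named genes, and were chosen after their values were seen. In each of them the 3 recovery arrays lay on 1 side of the 3 hardening arrays.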
